A study of Mus musculus with 14 samples.

Results

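A set of 10 neutrophil genes was followed through RNA-seq libraries of the superior mesenteric artery (SMA), the artery that supplies most of the small intestine. They were S100a8, S100a9, Ly6g, Csf3r, Cxcr2, Mmp8, Mmp9, Retnlg, Il1r2 and Trem1, that is 10 of the 46095 gene symbols in the count table, and they were chosen by symbol and by their use as neutrophil markers. All 10 had a row in the table. Every library came from 1 C57BL/6 mouse that was 8 weeks old by the labels. The 14 mice formed 4 groups: 3 Drp1 +/+ (WT) mice and 4 Drp1 flox/+ mice under normal conditions, and 3 Drp1 +/+ and 4 Drp1 flox/+ mice after ischemia. The Drp1 flox/+ mice are called KO below, the name used in the study, whose methods describe a heterozygous frameshift allele made with CRISPR/Cas9 in the whole animal and no Cre driver. Drp1 is the GTPase that divides mitochondria, and its gene symbol is Dnm1l. Ischemia was made by withdrawing blood from the femoral artery, and the library names carry 2 h for all ischemic mice, whereas the study's text names these groups with a longer time, so the duration is uncertain. The whole artery was used, so fewer neutrophils and less RNA per neutrophil cannot be told apart in any value below.

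Total counts ranged from 25612646 to 40255851 per mouse. Levels are given as CPM, the count of a gene per 1000000 counts of the library after TMM scaling, and 3 reads in a mouse, taken as the smallest level that this depth shows, amounted to 0.0677 to 0.113 CPM. The targeted gene Dnm1l had 63.8 to 90.9 CPM in WT and 54.8 to 62.2 CPM in KO mice under normal conditions, and 63.1 to 81.0 CPM and 60.0 to 76.0 CPM after ischemia, so that the genotypes overlapped after ischemia only. Smooth muscle was present in every library, with Myh11 between 2726 and 13667 CPM, whereas Tagln, another smooth muscle marker, stood at only 0.675 to 5.78 CPM. Brown adipose markers varied widely, with a summed level of 157 to 6638 CPM over 4 genes. The library of WT normal mouse 3 was the only one from lane 1, so this lane and that mouse cannot be told apart.

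Neutrophils are short-lived granulocytes that are made in the bone marrow under granulocyte colony-stimulating factor, circulate in the blood and enter inflamed tissue. They roll on endothelial selectins, bind ICAM-1 through their integrins, and follow CXC chemokines that are read by the receptor Cxcr2. Their granules hold proteases and antimicrobial proteins, and the cytosol holds large amounts of calprotectin, the complex of S100a8 and S100a9. In ischemic tissue, neutrophils are known as early arrivals at the vessel wall.

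The levels of S100a8, S100a9 and Mmp8 carry most of what follows, and the start regions of these genes are therefore shown. Each run is the 250 bases before the transcription start in RefSeq (build GRCm38.p6), written 5′ to 3′ on the strand of the gene. S100a8 has chr3:90668821-90669070 on the plus strand, S100a9 has chr3:90695722-90695971 on the minus strand, and Mmp8 has chr9:7558179-7558428 on the plus strand. Capitals mark matches to the letters searched, on either strand.
S100a8: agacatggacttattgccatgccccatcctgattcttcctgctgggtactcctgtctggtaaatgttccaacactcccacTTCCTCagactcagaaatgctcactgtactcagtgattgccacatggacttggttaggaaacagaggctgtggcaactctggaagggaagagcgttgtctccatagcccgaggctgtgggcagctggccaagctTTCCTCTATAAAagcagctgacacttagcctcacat
S100a9: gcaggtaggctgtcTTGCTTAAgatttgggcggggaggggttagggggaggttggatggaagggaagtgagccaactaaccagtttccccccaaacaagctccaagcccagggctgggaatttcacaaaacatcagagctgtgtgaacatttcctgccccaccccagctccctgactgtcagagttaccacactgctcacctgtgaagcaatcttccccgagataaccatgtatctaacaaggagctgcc
Mmp8: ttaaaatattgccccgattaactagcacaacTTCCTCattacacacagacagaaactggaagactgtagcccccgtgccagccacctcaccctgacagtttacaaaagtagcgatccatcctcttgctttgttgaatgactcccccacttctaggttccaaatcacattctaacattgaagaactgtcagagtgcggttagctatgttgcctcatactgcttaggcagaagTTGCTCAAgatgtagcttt
In the S100a8 region the capitals are 2 PU.1/Ets matches on the reverse strand, which begin 170 and 36 bases before the start, and a TATA box, which begins 30 bases before it. In S100a9 they are a C/EBP match that begins 236 bases before the start. Mmp8 had a PU.1/Ets match at 219 bases and a C/EBP match at 19 bases before the start. Both factor families are known to act in granulocyte genes.

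A start region was given for 9 of the 10 genes, all but Mmp9, and for Ly6g there were 2. The C/EBP letters TTNNGCAA were present in 4 of the 9 genes (S100a9, Ly6g, Mmp8 and Retnlg) and in 9.56% of 32851 start regions of the same length. PU.1/Ets letters (GAGGAA) were present in 6 of the 9 (S100a8, Ly6g, Csf3r, Cxcr2, Mmp8 and Trem1) and in 23.3% of all regions. The STAT letters TTCNNNGAA occurred in Il1r2 and Trem1, against 7.02% of all regions, and a TATA box (TATAAA) in S100a8 and Ly6g, against 12.4%. The NF-kB motif, GGG and TTTCC with 2 free bases between them, occurred in none of the 9 and in 1.41% of all regions. These matches describe the letters of the regions and were not tested against the expression values.

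Transcripts of these genes were scarce in the artery. Per kilobase of exon, the mean level over the 14 mice was highest for S100a9, at 3.12 ± 4.31 CPM per kb (SD, n = 14), followed by S100a8 (1.27 ± 1.91), Retnlg (1.03 ± 1.44) and Mmp9 (0.828 ± 0.271). Csf3r had 0.402 ± 0.263 CPM per kb and Il1r2 had 0.144 ± 0.223. Below these came Mmp8 at 0.0898, Cxcr2 at 0.0607 and Trem1 at 0.0345 CPM per kb, and Ly6g was listed at 0. From S100a9 down to Trem1, neighbours in this order differed by less than the larger of their SDs, except that Mmp9 lay above Csf3r by more than either SD. Of the 10 genes, 7 passed the filter on low counts and were tested, and Ly6g, Mmp8 and Trem1 did not pass.

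**Figure D1:**
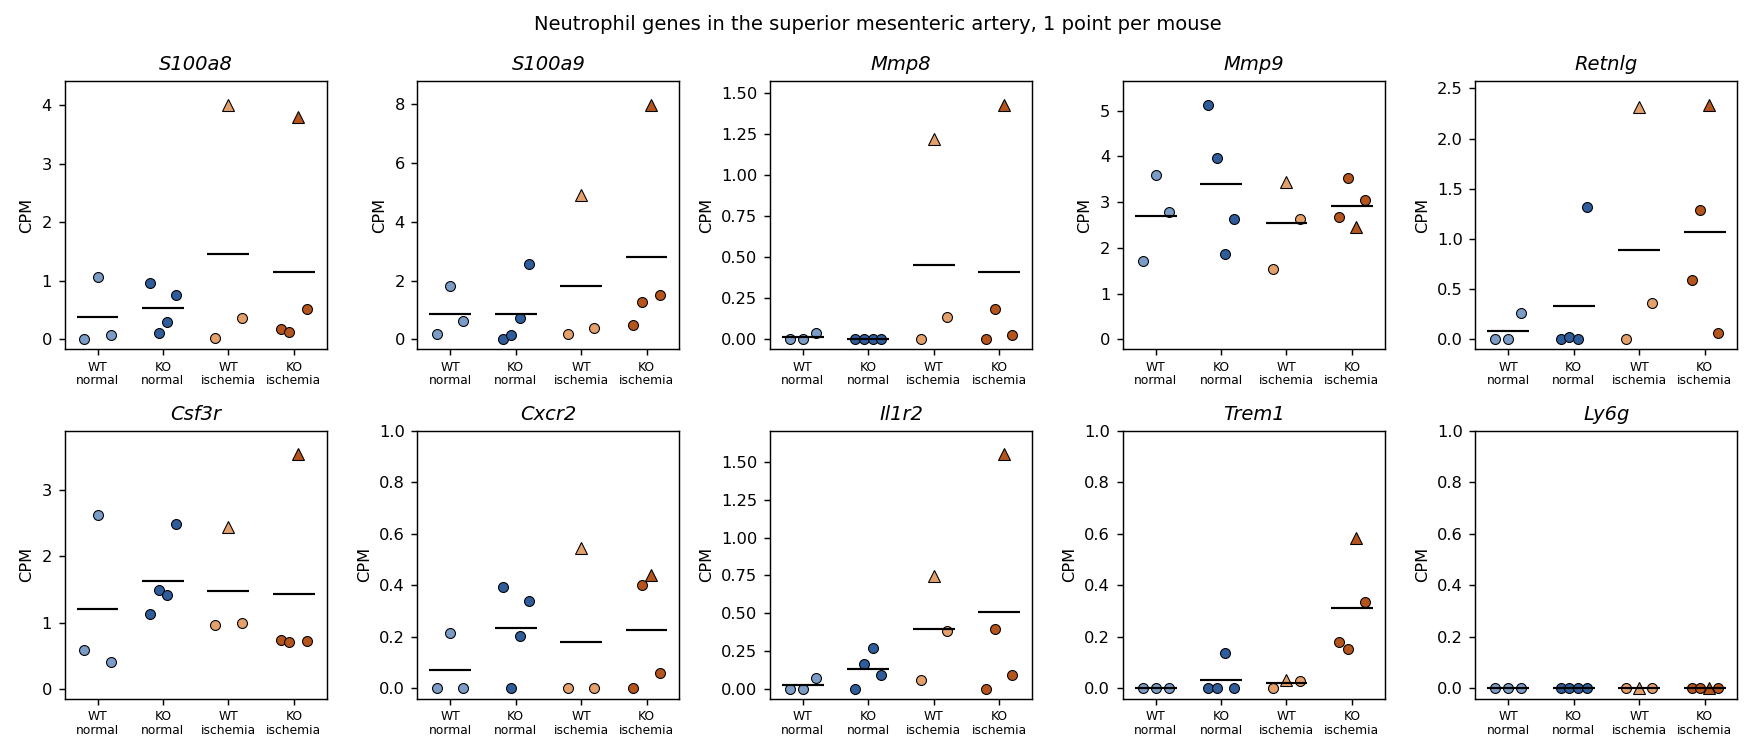
Level (CPM, linear axis) of each neutrophil gene in each of the 14 mice by group, with 1 point per mouse and a line at the group mean. Triangles mark WT ischemia mouse 2 and KO ischemia mouse 3, which lie far above the rest for S100a8, S100a9 and Mmp8 but not for Mmp9.

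S100a8 and S100a9 encode the subunits of calprotectin and lie next to each other on mouse chromosome 3. S100a8 (GRCm38, chr3:90668978-90670035, plus strand) had 0, 1.07 and 0.0755 CPM in the 3 WT mice and 0.959, 0.112, 0.294 and 0.767 CPM in the 4 KO mice under normal conditions. After ischemia it had 0.0304, 4.01 and 0.359 CPM in the WT mice and 0.178, 0.123, 3.80 and 0.517 CPM in the KO mice. Thus 1 ischemic mouse of each genotype, WT mouse 2 with 118 reads and KO mouse 3 with 130 reads, stood above all others, and the other 5 ischemic mice lay within the range of the normal mice.

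S100a9 (chr3:90692632-90695721, minus strand) had 0.177, 1.81 and 0.642 CPM in WT and 0, 0.140, 0.723 and 2.58 CPM in KO mice under normal conditions. Its levels after ischemia were 0.182, 4.90 and 0.387 CPM in WT and 0.475, 1.29, 7.98 and 1.52 CPM in KO mice. The same pair of mice was highest, with 144 and 273 reads. More reads fell on S100a9 than on S100a8 in 13 of the 14 mice. The exception was KO normal mouse 1, which had 34 reads of S100a8 and 0 of S100a9, although these subunits are known to be made together.

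Mmp8, also called neutrophil collagenase, is a protease stored in granules and cuts fibrillar collagen. Its reads (chr9:7558456-7568485, plus strand) were nearly absent under normal conditions, with 1 read in WT mouse 3 and 0 in the other 6 mice. After ischemia it had 0, 36 and 5 reads in the WT mice and 0, 6, 49 and 1 reads in the KO mice, so that 85 of 97 reads came from WT mouse 2 and KO mouse 3. The ratio of the summed reads, 97 against 1, was 99.0 after scaling by library size, with a 95% exact interval of 17.3 to 3949 that covers counting error only and not the spread between mice. The filter on low counts left Mmp8 out of the main test. Without the filter its adjusted p was 0.149 for ischemia against normal conditions averaged over genotypes (edgeR's quasi-likelihood test), while DESeq2 gave an adjusted p of 0.0236, the only call of any of the 10 genes by any tool.

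Mmp9, or gelatinase B, is stored in neutrophil granules but is also made by macrophages and vascular smooth muscle. It was read in all 14 mice (chr2:164940780-164955850, plus strand) at 1.71, 3.59 and 2.79 CPM in WT and 5.13, 3.96, 1.87 and 2.64 CPM in KO mice under normal conditions. After ischemia, Mmp9 had 1.55, 3.44 and 2.62 CPM in WT and 2.67, 3.53, 2.46 and 3.04 CPM in KO mice. The groups overlapped, and the highest level came from a normal KO mouse. Relative to its mean, Mmp9 varied least among the 9 genes with reads, and it had no excess in KO ischemia mouse 3.

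Retnlg, a resistin-like secreted protein of mature neutrophils, had reads in 9 mice (chr16:48872621-48874496, plus strand). Under normal conditions it had 0, 0 and 7 reads in WT mice and 0, 1, 0 and 43 reads in KO mice. The ischemic mice had 0, 68 and 13 reads in WT and 20, 42, 80 and 2 reads in KO. WT mouse 2 (2.31 CPM) and KO mouse 3 (2.34 CPM) were again highest, and KO normal mouse 4 (1.32 CPM) and KO ischemia mouse 2 (1.29 CPM) followed, so normal and ischemic mice overlapped.

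Csf3r and Cxcr2 are the receptors through which granulocyte colony-stimulating factor and CXC chemokines act on neutrophils. Csf3r (chr4:126024550-126044440, plus strand) had 0.590, 2.63 and 0.415 CPM in WT and 1.13, 1.49, 1.42 and 2.48 CPM in KO mice under normal conditions, and 0.973, 2.45 and 0.994 CPM in WT and 0.743, 0.706, 3.54 and 0.730 CPM in KO mice after ischemia. KO ischemia mouse 3 was highest and the other 3 KO ischemia mice were below every normal KO mouse. Cxcr2 (chr1:74153989-74161246, plus strand) had at most 16 reads in any mouse and 0 reads in 6 of the 14 mice. Its highest levels were 0.544 CPM in WT ischemia mouse 2 and 0.439 CPM in KO ischemia mouse 3, hardly above 0.399 CPM in KO ischemia mouse 2 and 0.395 CPM in KO normal mouse 1.

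Il1r2, the decoy receptor that binds interleukin-1 without passing on its signal, had 0, 0 and 2 reads in WT and 0, 6, 12 and 3 reads in KO mice under normal conditions (chr1:40074079-40125231, plus strand). It had 2, 22 and 14 reads in WT and 0, 13, 53 and 3 reads in KO mice after ischemia. The ratio of summed reads in WT mice, 38 after ischemia against 2 under normal conditions, was 17.1 after scaling (95% exact interval 4.41 to 146, counting error only). In KO mice 69 against 21 reads gave 3.65 (2.21 to 6.26). The highest levels, 1.55 and 0.748 CPM, were again in KO mouse 3 and WT mouse 2.

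Trem1, an activating receptor of neutrophils and monocytes, differed from the others (chr17:48232768-48246924, plus strand). The KO ischemia mice had 6, 5, 20 and 11 reads, against 0, 1 and 1 in the WT ischemia mice, and under normal conditions 6 reads in KO mouse 3 and 0 in the other 6 mice. The lowest KO ischemia level, 0.154 CPM, lay just above the highest level elsewhere, 0.136 CPM in KO normal mouse 3. Of 22010 symbols with 15 or more reads, 0.145% had all 4 KO ischemia mice above the other 10 mice. Without the filter on low counts, the log2 fold change of Trem1 between KO and WT mice after ischemia was 3.71 ± 1.98 (SE). Its adjusted p was 0.715 (edgeR), so it did not pass the test. The SE here and below is approximate, since it was derived from the F statistic of the test. In WT ischemia mouse 2, where the other scarce genes were high, Trem1 had only 1 read.

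Ly6g, the surface antigen by which mouse neutrophils are usually sorted, was listed at 0 in all 14 mice (chr15:75155240-75159126, plus strand). If its reads could be counted, this allows a level of up to 0.0677 to 0.113 CPM depending on the mouse. Ly6g belongs to a family of close copies on chromosome 15, and how shared reads were counted is not given in the sources used here. If shared reads were left out, that upper limit does not hold. Other symbols that could be present were also listed at 0 in every mouse, among them the T cell receptor constant regions Trbc1 and Trbc2. The defining marker of the cell type was therefore not seen in these files, and the values above are those of genes that neutrophils express strongly but share in part with monocytes and macrophages.

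The first comparison asked whether ischemia changed these genes in the artery, in each genotype and over both. Of the 7 genes tested, 0 passed an FDR of 0.05 and a fold change of 1.5 in WT mice, in KO mice or averaged over genotypes (quasi-likelihood test of edgeR, adjusted over 17693 genes after Benjamini and Hochberg). The same rule called 0.0113% of all genes in WT mice, 0.294% in KO mice and 0.927% averaged over genotypes. At an unadjusted p under 0.05, 1 of the 7 passed in the average, against 18.1% of all genes, and 0 passed within either genotype, against 9.57% in WT and 13.2% in KO mice. Of the 10, 1 (Mmp8) was called by DESeq2 in the average and 0 within genotypes.

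The size of the fitted changes was large and so was their error. Averaged over genotypes, the log2 fold change was 2.88 ± 1.21 (SE) for Il1r2 (adjusted p = 0.238), 2.5 ± 1.43 for Retnlg (0.370), 1.53 ± 1.13 for S100a8 (0.486) and 1.38 ± 1.03 for S100a9 (0.487). Cxcr2 had 0.63 ± 1.30, Csf3r 0.05 ± 0.54 and Mmp9 −0.15 ± 0.30. The median over the 7 genes was 1.38, beside −0.05 over all genes tested, and 6 of the 7 values were above 0. Within WT mice S100a8 had 1.94 ± 1.73 and S100a9 1.05 ± 1.55, and within KO mice 1.11 ± 1.46 and 1.71 ± 1.35. The medians over the 7 genes were 1.30 in WT and 1.11 in KO mice.

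Most of these values rested on a pair of mice. Over the 8 genes other than Mmp9 and Csf3r, 1777 reads were counted in 14 mice, and 1025 of them (57.7%) came from WT ischemia mouse 2 (405 reads) and KO ischemia mouse 3 (620 reads). The summed level of these 8 genes was 13.8 and 18.1 CPM in these mice, 0.177 to 5.09 CPM in the other 12, and 0.274 to 3.84 CPM in the other 5 ischemic mice. When both were left out, a choice made after seeing the data, the log2 fold change averaged over genotypes was −0.94 ± 1.12 for S100a8, −0.62 ± 1.03 for S100a9, −0.73 ± 0.51 for Csf3r and −2.43 ± 1.66 for Cxcr2. Il1r2 kept 1.67 ± 1.28 and Retnlg 0.99 ± 1.59, and 0 of the genes passed the test. Hence 4 of the 7 genes turned from a positive to a negative value.

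**Figure D2:**
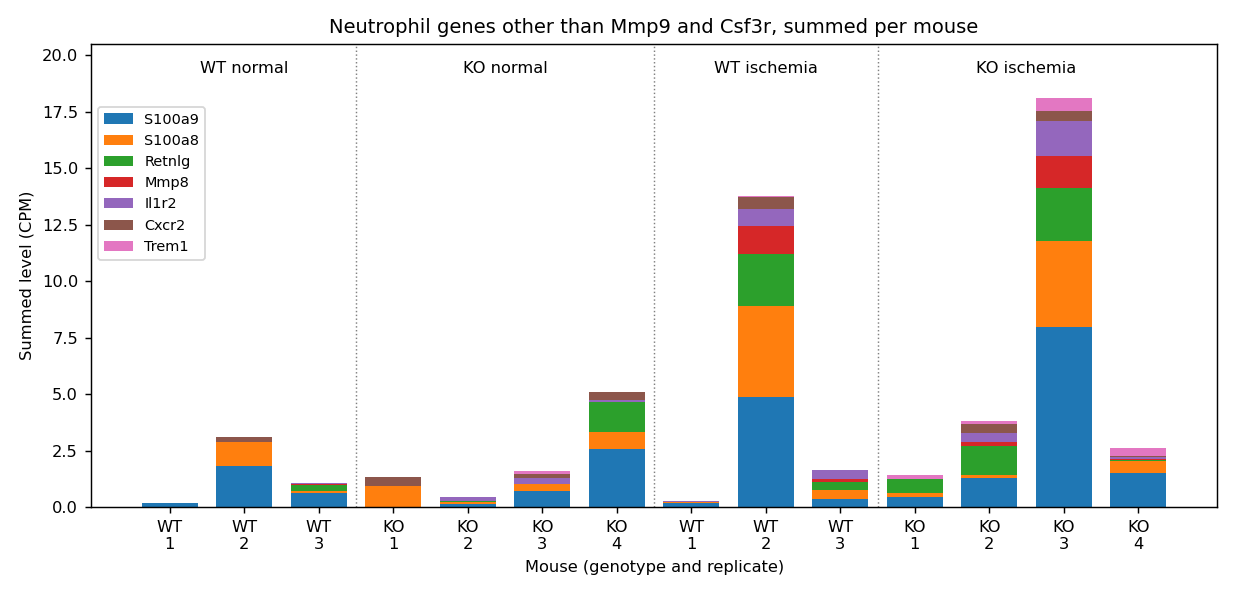
Summed level (CPM, linear axis from 0) of the neutrophil genes other than Mmp9 and Csf3r in each mouse, stacked by gene, with Ly6g at 0. WT ischemia mouse 2 (13.8 CPM) and KO ischemia mouse 3 (18.1 CPM) exceed KO normal mouse 4 (5.09 CPM), the next highest.

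**Figure D3:**
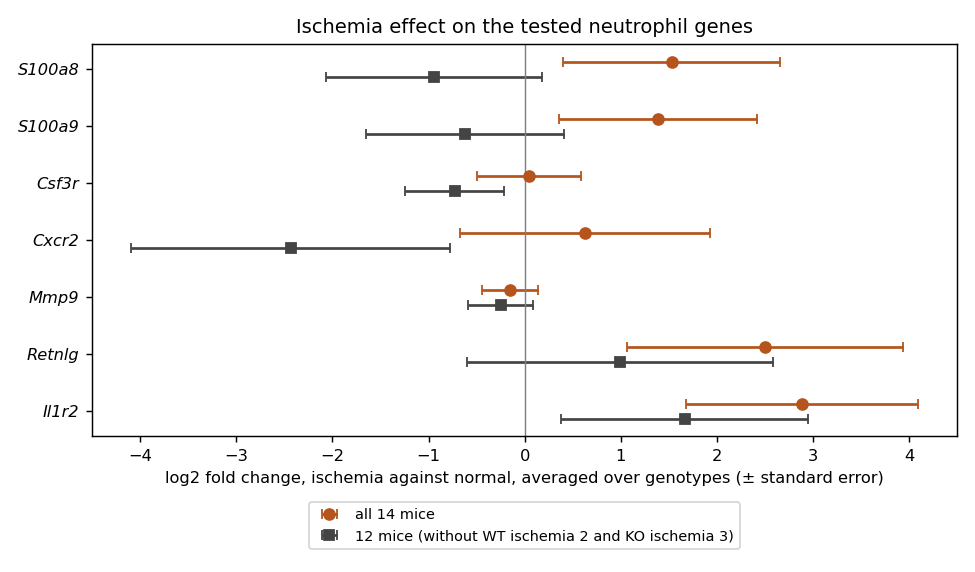
Log2 fold change of ischemia against normal conditions, averaged over genotypes, for the 7 neutrophil genes tested, with bars of 1 approximate standard error, from all 14 mice and from the 12 mice left without WT ischemia mouse 2 and KO ischemia mouse 3. S100a8, S100a9, Csf3r and Cxcr2 lie above 0 with all mice and below 0 with 12.

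In 6 of the 9 genes with reads (S100a8, S100a9, Cxcr2, Mmp8, Retnlg and Il1r2) these mice held the 2 highest levels of all 14, a pattern found in 1.17% of all genes tested. In 8 of the 9, Mmp9 being the exception, the single highest level lay in one of them, against 8.74% of all genes. The pair was picked from these very genes, so the counts describe the pattern and are no test of it. Across the 14 mice the log2 levels of the tested genes other than Mmp9 were positively correlated, with a Pearson r of 0.31 to 0.79 over 15 pairs of genes, while the 6 pairs with Mmp9 had −0.05 to 0.43. All genes of a mouse share its library and depth, and these values are descriptive.

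The second comparison asked whether Drp1 genotype mattered. KO and WT mice did not differ by the test in any of the 7 genes, either under normal conditions, with log2 fold changes of −0.03 to 2.32 and a smallest unadjusted p of 0.225 (edgeR), or after ischemia, with −0.34 to 0.63 and 0.631. The interaction, that is the difference of the ischemia effect between genotypes, ranged from −1.96 to 0.66 with standard errors of 0.59 to 2.74, and its smallest adjusted p was 0.953. Single mice moved these values widely: with 1 mouse left out, the difference between KO and WT mice after ischemia ran from −2.41 to 2.60 for S100a8, from −0.73 to 3.34 for S100a9 and from −0.26 to 5.98 for Cxcr2, without a call. Over all genes, each of these 3 comparisons called 0% of the 17693 genes with edgeR, where 5.25%, 6.48% and 4.32% passed an unadjusted p under 0.05 and DESeq2 called 51, 29 and 11 genes. The error of these estimates leaves room for differences of several fold, and a missing call does not show that the genotypes were alike.

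Of 25 further genes of mature neutrophils, 18 were tested, and 2 rose after ischemia averaged over genotypes while 0 fell, beside 0.616% of all genes higher and 0.311% lower. The 2 were Cxcl2, a chemokine that neutrophils also make, and Ccrl2, a chemokine-binding receptor that endothelium also carries (log2 fold change 1.41 ± 0.23, adjusted p = 0.0140). The median of the list was 0.26, and 7 of the 18 (38.9%) had an unadjusted p under 0.05, against 18.1% of all genes. Ccrl2, Clec4e, a receptor for mycobacterial lipids and dead cells, and Fpr1, the receptor for formylated bacterial peptides, had their 2 highest levels in WT ischemia mouse 2 and KO ischemia mouse 3. For Fpr1 these were 40 and 17 reads, against 6 reads in all 7 normal mice. Clec4e and Fpr1 were named after their values were seen.

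Granule protein genes, which are transcribed mainly in bone marrow precursors, were called in 0 of the 4 tested of 12 listed, averaged over genotypes, beside 0.927% of all genes. Ngp, a neutrophil granule protein, had 136 reads in WT ischemia mouse 2 and 109 in KO ischemia mouse 3, against 2 reads in the 7 normal mice and at most 0.851 CPM in any of the other 12 mice (adjusted p = 0.0685). Lcn2, the iron-trapping protein lipocalin-2 that stressed tissue cells also make, reached 96.1 and 27.4 CPM in these mice, against 1.06 to 19.5 CPM in the other 5 ischemic and 0.678 to 4.77 CPM in the normal mice, with a log2 fold change of 3.43 ± 0.84 (adjusted p = 0.0784). Both genes passed the test with DESeq2 and without the filter on low counts. With 1 mouse left out at a time, the adjusted p ran from 0.0478 to 0.134 for Ngp and from 0.0291 to 0.177 for Lcn2 (edgeR). Without both WT ischemia mouse 2 and KO ischemia mouse 3 it was 0.189 for Ngp and 0.254 for Lcn2. Ltf, the granule protein lactoferrin, also had its 2 highest levels in these 2 mice, at 1.67 and 0.994 CPM. The other 3 genes of the list with 15 or more reads did not share this order. Prtn3, the granule protease proteinase 3, was highest in WT normal mouse 2 (86 reads, 3.05 CPM), and Chil3, a chitinase-like protein, in KO ischemia mouse 4 (1.46 CPM). Elane, which encodes neutrophil elastase, had 28 reads in all, at most 7 in a mouse. Over the 14 libraries there were 240 reads of Prtn3, 5 of Mpo, 2 of Ctsg, 1 of Cebpe and 0 of Fcnb and Ms4a3. Ltf, Prtn3, Chil3 and Elane were named after their values were seen.

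Of 8 chemokine and growth factor genes that draw or sustain neutrophils, 5 were tested. After ischemia 3 rose and 0 fell averaged over genotypes, beside 0.616% of all genes higher and 0.311% lower. The summed level of the list overlapped, at 72.4 to 452 CPM in normal and 155 to 399 CPM in ischemic mice. Most of this sum was the chemokine gene Cxcl12, with 90858 reads over all mice against 18153 for Cxcl1. Its highest levels lay in KO normal mice 2 and 3. Cxcl12 was named after its values were seen. Cxcl1, a ligand of Cxcr2, had 0 to 5.37 CPM in the 7 normal mice and 42.6, 156 and 57.6 CPM in the WT and 58.2, 76.0, 56.2 and 103 CPM in the KO mice after ischemia (log2 fold change 6.04 ± 0.90, adjusted p = 0.0103). Cxcl2, another Cxcr2 ligand, had 0 to 49 reads per mouse under normal conditions and 404 to 1483 reads after ischemia (7.32 ± 0.99, adjusted p = 0.0052). All 7 ischemic mice stood above all 7 normal mice for both genes, a pattern of 0.576% of all genes tested.

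Csf3, which encodes granulocyte colony-stimulating factor, the ligand of Csf3r, had 3 reads in the 7 normal mice together and 9, 926 and 90 reads in the WT and 192, 48, 207 and 656 reads in the KO mice after ischemia (adjusted p = 0.0147). With 1 mouse left out at a time its adjusted p ran from 0.0039 to 0.0562, the latter without KO normal mouse 3, which held those 3 reads. Within WT and within KO mice, 0 of the 5 tested genes of this list were called, beside 0.0113% and 0.294% of all genes. Cxcl3, Cxcl5 and Il17a were listed at 0 in every mouse.

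Of 9 adhesion genes of endothelium and leukocytes, all tested, 3 endothelial ones were called higher and 0 lower averaged over genotypes. Of all genes, 0.616% were called higher and 0.311% lower. The other 6 adhesion genes had log2 fold changes below 0 without a call. Of the 9, 7 had an unadjusted p under 0.05 (edgeR), against 18.1% of all genes, and the median of the list was −0.94. Sele, the E-selectin on which neutrophils roll, went from 0.0282 to 4.20 CPM in normal mice to 124, 286 and 67.0 CPM in WT and 73.2, 92.3, 126 and 116 CPM in KO ischemic mice (log2 fold change 5.94 ± 0.71, adjusted p = 0.0037). Icam1, the ligand of neutrophil integrins, rose from 16.7 to 72.6 CPM to 272 to 1090 CPM (4.20 ± 0.40, adjusted p = 0.0006). Selp, the P-selectin of endothelium and platelets, rose from 2.71 to 12.2 CPM to 21.0 to 259 CPM (3.76 ± 0.63, adjusted p = 0.0164). Within genotypes, 1 of the 9 genes was called higher in WT and 2 in KO mice, where 0.0113% and 0.294% of all genes were called in either direction.

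The normal and ischemic mice did not overlap in any of these 6 genes. Sele, Selp and Icam1, 3 of the 9 adhesion genes, had their 2 highest levels in WT ischemia mouse 2 and KO ischemia mouse 3. So did 6 of the 9 neutrophil genes with reads, and 1.17% of all genes tested. For Sele and Selp, KO mouse 3 (126 and 129.5 CPM) barely exceeded the next mouse (124 and 128.7 CPM). Cxcl1, Cxcl2 and Csf3 did not follow this order, since KO mouse 3 was not among the 2 highest mice. Without the pair, all 6 stayed called, with log2 fold changes of 5.71 for Cxcl1, 7.13 for Cxcl2, 5.52 for Sele, 2.57 for Selp and 3.62 for Icam1. The pair was chosen from the neutrophil genes, so the fall of their values without it was in part fixed by that choice and is no contrast with these 6 genes.

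**Figure D4:**
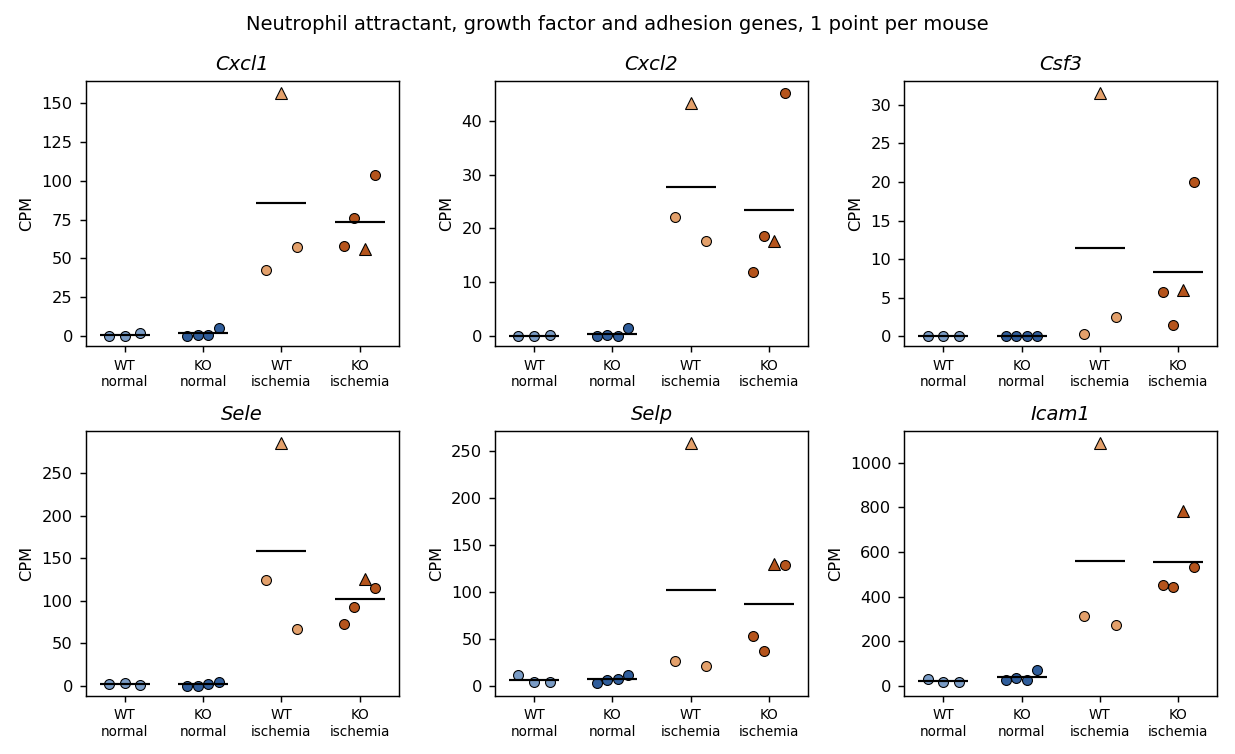
Level (CPM, linear axis) of the attractant genes Cxcl1 and Cxcl2, the growth factor gene Csf3 and the adhesion genes Sele, Selp and Icam1 in each of the 14 mice by group, with a line at the group mean. All 7 ischemic mice lie above all 7 normal mice for each gene, and triangles mark WT ischemia mouse 2 and KO ischemia mouse 3.

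Among the markers of other cells listed, 2 genes fell after ischemia averaged over genotypes and 0 rose, beside 0.311% of all genes lower and 0.616% higher. The 5 erythroid genes summed to 107 to 251 CPM in WT and 346 to 592 CPM in KO mice under normal conditions, and to 4.62 to 109 CPM and 75.9 to 186 CPM after ischemia, with 0 of 5 called (smallest adjusted p = 0.0534, Alas2) and all 5 at log2 fold changes below 0. In WT ischemia mouse 2 and KO ischemia mouse 3 the erythroid sum was 109 and 151 CPM, among the higher ischemic values but not the highest, 186 CPM in KO mouse 1. Of 6 monocyte genes 1 fell, Ccr2, the receptor for the chemokine Ccl2 (log2 fold change −2.98 ± 0.63, adjusted p = 0.0444), a call that was lost in 11 of the 14 fits with 1 mouse left out, where the log2 fold change stayed between −3.60 and −2.52. Of 6 lymphocyte genes tested 1 was lower, the T cell receptor subunit Cd3g (−4.78 ± 0.90, adjusted p = 0.0322), lost in 10 of the 14 (−4.96 to −4.15), with limma-trend (adjusted p = 0.0596) and with the replicate number as a block (0.0746). Without WT ischemia mouse 2 and KO ischemia mouse 3 neither was called (adjusted p = 0.106 for Cd3g and 0.0651 for Ccr2). Macrophage (0 of 8), platelet (0 of 3), mast cell (0 of 5), smooth muscle (0 of 5), endothelial (0 of 5), brown (0 of 4) and white adipocyte (0 of 4) and epithelial or pancreatic genes (0 of 2) had no call.

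Monocytes and macrophages can also express Csf3r, Mmp9 and Trem1. The summed level of the monocyte genes was 136 and 142 CPM in WT ischemia mouse 2 and KO ischemia mouse 3, within the 108 to 181 CPM of the other ischemic mice. Their macrophage sums were 238 and 354 CPM, the second being the highest of the ischemic mice, against 69.0 to 318 CPM in the other 5. Brown adipose genes summed to 1364 and 3559 CPM, within the 264 to 4707 CPM of the others. KO normal mouse 4, the next highest in its neutrophil genes, had the highest lymphocyte sum of all 14 mice, 23.3 CPM. The part of these cells in the neutrophil gene levels was not tested.

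All other tested genes, those of the further lists included, were ranked by how closely their log2 levels followed the mean of the 7 tested neutrophil genes. The closest over the 14 mice were Tnip1, an inhibitor of NF-kB signalling (Pearson r = 0.859), Sema7a, Als2cr12, Lipg, Tmem173 (the DNA sensor adaptor STING), Bhlhe40, St3gal1, Dio2 (0.839), Noct and Kcna5. The neutrophil genes themselves had r of 0.403 (Mmp9) to 0.900 (S100a8) with this mean, of which they are part. After the group means were removed the order changed to Tiparp (0.930), Lgals3bp, Dio2, Mx1, Rtp4, Tnfrsf1b, Ccl5, Slfn5, Lipg and Gm4070 (0.891), with Dio2 and Lipg in both orders. Of the first 10, Tnip1 had 103 and 82.9 CPM in WT ischemia mouse 2 and KO ischemia mouse 3 and at most 60.6 CPM elsewhere. Dio2, the deiodinase of brown fat, had 173 and 426 CPM there and up to 328 CPM elsewhere. The r of Tnip1 was 0.634 without that pair, and that of Lipg was 0.891. These are the closest of 17693 genes, given as a description and with no test.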

How the data were processed

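RNA was measured by sequencing total RNA of the superior mesenteric artery of 14 mice. The authors deposited 1 table of raw read counts per gene symbol and mouse, not normalized and not pooled. Per the submitters' processing notes, HISAT2 2.0.4 and mm10 were used; the counting program, annotation and use of strand are not given in the sources used here. Columns were assigned to mice by their names, and 0 columns were left unused. Genes were kept by filterByExpr (17693 of 46095), scaled by TMM and fitted in edgeR 4.0.16 (R 4.3.3) with 1 mean per group. Quasi-likelihood tests were called at FDR < 0.05 with more than 1.5-fold change. The standard errors printed are the absolute log2 fold change divided by the square root of the F statistic, and are approximate. Levels per kilobase used GENCODE M21 exons (GRCm38), and start regions came from RefSeq (GRCm38.p6). The 18 pairs of mice within groups differed by more than counting noise. DESeq2 1.42.0, limma 3.58.1, other scalings, filters and left-out mice were alternatives. The test was checked on simulated data with known changes. Named genes outside the 10 were, per list, up to 4 called genes or the 2 with the smallest p in the averaged ischemia comparison, and the 10 nearest in pattern. The 10 genes and all lists were chosen with earlier results of these data known. The p-values set each difference between groups against the spread between mice and treat the mice as independent. Whether mice within a group shared litters is not stated.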

Additional observations from a re-analysis of the deposited data

Results flagged for a closer look

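In groups of 4 mice, the gap between the highest or lowest mouse and its neighbour, as a share of the group's range, was compared with Dixon's 95% limit for 4 values. Of 17 gene and group combinations with reads, 6 exceeded it. That limit flags about 1 in 20 for normally distributed values, a rate that does not apply to counts this low. The genes are also not independent of each other, so the flags are a description. KO ischemia mouse 3, already picked from these genes above, stood apart from the other 3 KO ischemia mice for S100a8 (3.80 CPM), S100a9 (7.98 CPM), Csf3r (3.54 CPM) and Mmp8 (1.43 CPM). KO normal mouse 4 stood apart for Retnlg with 1.32 CPM (43 reads, against at most 1 read in the other 3). KO normal mouse 3 held the only Trem1 reads of its group, 6 reads or 0.136 CPM, a case that exceeds the limit by construction. Groups of 3 mice were not tested in this way, so WT ischemia mouse 2 was not assessed.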

How the results depend on the processing

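Values are genes called or log2 fold changes. For the 7 neutrophil genes tested in the main fit, 457 values were obtained in the ischemia comparisons under the alternatives. Of these, 34 changed sign and 0 were called. Of 458 values of the same genes in the genotype and interaction comparisons, 49 changed sign and 0 were called. Some alternatives gave no value for a gene that then failed the filter. DESeq2 called 1 of the 10 genes (Mmp8), and over all genes 108 in WT, 604 in KO and 888 averaged over genotypes for ischemia, where edgeR called 2, 52 and 164. It also called 51, 29 and 11 genes for genotype under normal conditions, genotype after ischemia and the interaction, where edgeR called 0. With limma-trend 4 genes were called in WT mice. With only the groups compared in the fit the counts were 0 in WT and 267 in KO mice. Leaving out WT ischemia mouse 2 and KO ischemia mouse 3 together gave 0 in WT mice and 45 in the average. It reversed S100a8 (−0.96 in WT, −0.93 in KO, −0.94 in the average), S100a9 (−1.62 in WT, −0.62 in the average), Csf3r (−0.31 and −0.73) and Cxcr2 (−4.31 and −2.43). The cause was not tested.

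Leaving out 1 mouse at a time gave 0 to 3 genes in WT, 5 to 174 in KO and 60 to 361 in the average for ischemia, and 0 to 29 for genotype under normal conditions (29 without WT normal mouse 2). S100a8 then ranged from −0.95 to 5.23 in WT and −0.95 to 1.59 in KO mice, S100a9 from −1.62 to 2.14 in WT mice, and Mmp9 from −0.39 to 0.17 in WT and −0.42 to 0.074 in KO mice. Csf3r ranged from −0.31 to 1.52 in WT, −1.16 to 0.086 in KO and −0.44 to 0.68 in the average, and Cxcr2 from −4.31 to 5.62, −0.60 to 0.35 and −2.16 to 2.80.

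The replicate block gave 0 genes in WT mice and turned Cxcr2 in the average to −0.19. Mice with the same number are different animals, and of 19 same-numbered pairs 11 had deviations from the group means that correlated above 0.1 (−0.15 to 0.32), against 9 of 54 pairs with different numbers (−0.38 to 0.33). Among 14 mice 8 correlated best with one of their own number. This is a hint of shared variation that the labels do not explain, and since not every same-numbered pair was above 0.1, the numbers were not taken as a pairing. Depth limits Trem1, Cxcr2 and Mmp8, which had few or no reads in most mice. Ly6g was listed at 0 in every mouse, and whether depth or the counting of shared reads set this was not tested.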
